A study of Volvox carteri with 4 samples.

Results

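Glycolysis and gluconeogenesis run through the same chain of reversible reactions in opposite directions and part at a pair of control steps. At the upper step phosphofructokinase (PFK) phosphorylates fructose-6-phosphate in the glycolytic direction, and fructose-1,6-bisphosphatase (FBP) removes that phosphate in the gluconeogenic direction. At the lower step pyruvate kinase (PYK) turns phosphoenolpyruvate into pyruvate, whereas phosphoenolpyruvate carboxykinase (PCK) makes phosphoenolpyruvate from oxaloacetate. In green algae a plastid FBP also serves the Calvin cycle, so that the enzyme family is shared between carbon fixation and sugar synthesis.

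The genes described here are the 6 that encode the PCK, PFK and FBP1 enzymes in the study's list of carbon metabolism genes, out of 16008 gene models counted and 13350 tested. They were chosen by enzyme, with earlier results of these data known, and leave out the other FBP gene, *FBP2*. All 6 passed the filter on low counts. They are *PFK1* (Vocar.0002s0496), *PFK2* (Vocar.0007s0331), *FBP1* (Vocar.0005s0037), *PCK1* (Vocar.0021s0021), *PCK2* (Vocar.0008s0023) and *PCK3* (Vocar.0021s0022). *PCK1* and *PCK3* carry consecutive locus numbers on the same scaffold. The 5 *PYK* genes are given where they are needed as the enzymes opposed to PCK.

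*Volvox carteri* is a multicellular green alga with 2 cell-types, large reproductive gonidia and small flagellated somatic cells. RNA came from 2 gonidial and 2 somatic preparations of the female strain Eve, with no mutation or treatment, taken from hatched adult spheroids at hour 42 of the 48 hr life cycle, 6 hr into the second light period. Gonidia were not dividing at this stage. Each culture gave 1 cell-type only, so the 4 libraries are separate cultures and form no pairs.

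Counts per library summed to between 10838222 and 13104583, and the limit for a gene at 0 is 3 counts, which is 2.53 to 3.25 normalized counts and covers counting error only. Normalized counts are counts divided by relative library size, where library size leaves out the most abundant 0.3% of genes. Log2 fold changes are somatic over gonidial and were taken from a quasi-likelihood fit in edgeR, whose p-values were adjusted by Benjamini-Hochberg over the 13350 genes. The SE of a log2 fold change was derived from the F statistic of that fit. It draws on the variance of other genes and is not the observed spread of the replicates. Genes with an adjusted p under 0.05 and at least a 2-fold change were called, as specific above 5-fold and as biased below it. Genes that changed less than 2-fold are constitutive here, whatever their adjusted p. In the study constitutive genes also had a false discovery rate above 0.05. The somatic marker *regA*, a regulator that represses reproductive growth in somatic cells, had 1 and 0 counts in gonidia and 486 and 786 in somatic cells. The summed level of 27 intraflagellar transport genes, which build flagella, was 3.15% and 3.02% of the mean somatic level in the gonidial libraries, none of them at 0, and no marker list was fixed for gonidia.

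Of the 6 control genes 5 were called, 3 gonidial and 2 somatic. This is beside 72.7% of all tested genes, of which 46.7% were gonidial and 26.0% somatic. Gonidial and somatic libraries did not overlap for any of the 6 genes, beside 90.6% of all tested genes, so that neither count sets these genes apart. The somatic calls were *FBP1* and *PCK2*, and the gonidial calls were *PFK2*, *PCK1* and *PCK3*. The split between directions depended on library scaling, with 2 gonidial and 3 somatic calls under TMM and 1 gonidial and 3 somatic calls under DESeq2 size factors. In RNA from a fraction of cells, fewer cells with a transcript and less transcript per cell cannot be told apart.

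**Figure D1:**
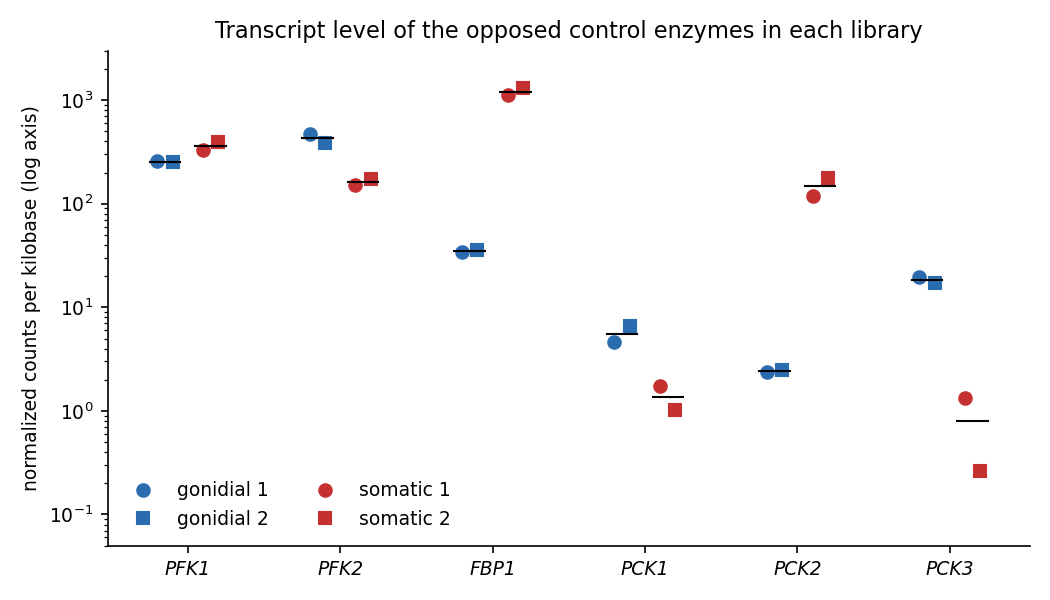
Normalized counts per kilobase (log axis) of the 6 control genes in each library, with gonidial libraries in blue, somatic libraries in red and the mean of each cell-type as a black line. *FBP1* went from 34.1 and 36.0 in gonidia to 1118 and 1298 in somatic cells, while *PCK2* and *PCK3* moved in opposite directions.

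At the upper step, *FBP1* carried the main difference. Gonidial libraries held 138 and 140 of its counts and somatic libraries 4386 and 6487. Per kilobase these were 34.1 and 36.0 normalized counts in gonidia and 1118 and 1298 in somatic cells. The replicates of each cell-type lay close together and the gap between cell-types was many times their spread. The difference was 34.5-fold, with a log2 fold change of 5.11 ± 0.25 (SE, n = 2 libraries per cell-type) and an adjusted p of 7.80e-13 by edgeR, and *FBP1* was somatic-specific. Among tested genes 6.98% had a larger change toward somatic cells.

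*FBP1* was nonetheless well above the counting limit in gonidia, at 2.90% of its somatic level. That share lies inside the range of the intraflagellar transport markers, 0.200% to 29.4% with a median of 1.99%, but *regA* stood at 0.0877% of its somatic level in the same libraries. Whether any of the gonidial *FBP1* reads came from somatic cells in the preparation was not tested.

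The opposing *PFK* genes changed little by comparison. *PFK1* had 259 and 251 normalized counts per kilobase in gonidia, against 330 and 393 in somatic cells, the somatic pair being the higher. Its log2 fold change was 0.50 ± 0.23 (SE), a 1.42-fold difference with an adjusted p of 0.0493 by edgeR, and it was therefore constitutive by the 2-fold limit. *PFK2* had 471 and 384 normalized counts per kilobase in gonidia and 152 and 174 in somatic cells. It was gonidial-biased, with a 2.62-fold difference, a log2 fold change of -1.39 ± 0.23 (SE) and an adjusted p of 1.66e-05 by edgeR.

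The calls of both *PFK* genes depended on how libraries were scaled. TMM scaling moved *PFK1* to 1.10 (adjusted p = 4.89e-05), which is a somatic call, and moved *PFK2* to -0.79, which is short of 2-fold. DESeq2's size factors moved them to 1.21 and -0.67 in the same way. Under these scalings the median change over all genes (log2) rose from -0.85 to -0.26 and -0.14, and the gonidial share of all calls fell from 64.2% to 54.1% and 51.9%.

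The balance between the 2 *PFK* paralogs is free of library scaling, because it is taken within a library. The ratio of *PFK1* to *PFK2*, per kilobase, was 0.551 and 0.653 in gonidia, against 2.17 and 2.26 in somatic cells. *PFK1* thus supplied 35.5% and 39.5% of the *PFK* transcripts in gonidia and 68.4% and 69.3% in somatic cells, so that the more abundant paralog differed between cell-types. The ratio changed 3.69-fold, or 1.88 on the log2 scale, with no overlap between cell-types. An exact permutation test (two-sided) of 2 against 2 libraries cannot give less than p = 0.33, and it gave that value for this and for each other ratio reported.

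The sum of both *PFK* genes differed less than either gene. It was 731 and 635 normalized counts per kilobase in gonidia and 482 and 567 in somatic cells, 1.30-fold higher in gonidia (exact permutation p = 0.33), but 1.16-fold and 1.26-fold higher in somatic cells under TMM and DESeq2 size factors. With plain library totals the libraries of the cell-types overlapped. No direction for total *PFK* transcript can be given from these libraries.

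The ratio of *FBP1* to the summed *PFK* genes, per kilobase, was 0.0466 and 0.0568 in the gonidial libraries. In the somatic libraries it was 2.32 and 2.29. *PFK* transcripts exceeded *FBP1* transcripts 21.4-fold and 17.6-fold in gonidia, and *FBP1* exceeded *PFK* in both somatic libraries. The ratio rose 44.8-fold toward somatic cells, a difference of 5.48 on the log2 scale between means of -4.28 ± 0.20 (SD, n = 2) and 1.20 ± 0.012 (SD, n = 2), with an exact permutation p of 0.33. Against *PFK1* alone the ratio was 0.131 and 0.144 in gonidia and 3.39 and 3.30 in somatic cells, and against *PFK2* alone 0.0723 and 0.0938 in gonidia and 7.34 and 7.47 in somatic cells. The order of *FBP1* and *PFK* transcripts turned over between cell-types with either *PFK* paralog, in ratios that leave out the other FBP gene, *FBP2*.

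**Figure D2:**
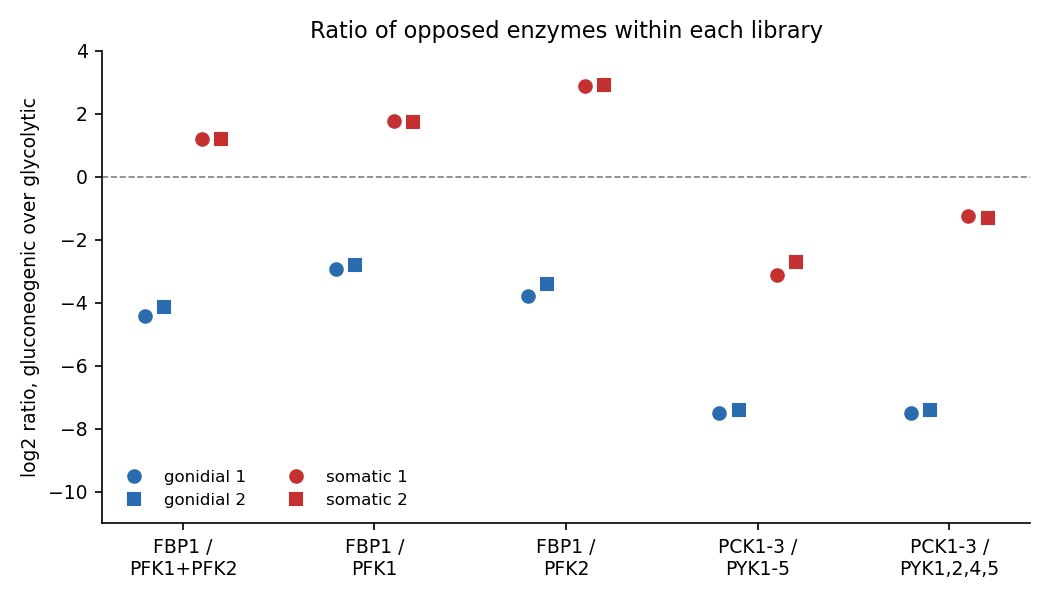
Log2 ratio of the gluconeogenic to the glycolytic enzyme, per kilobase, within each library, with 0 (equal levels) as a dashed line, for *FBP1* against the *PFK* genes and for the *PCK* genes against the *PYK* genes. Somatic libraries (red) lie above gonidial libraries (blue) in every ratio, and above 0 only in the 3 ratios of *FBP1* to *PFK*, which leave out *FBP2*.

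*FBP1* was not the main FBP gene in either cell-type. *FBP2*, which the study lists with the Calvin cycle, had 10113 and 11018 normalized counts per kilobase in gonidia and 4977 and 4754 in somatic cells. Alone it exceeded the summed *PFK* genes in every library, which had 731 and 635 in gonidia and 482 and 567 in somatic cells. With both FBP genes counted, the order of FBP and *PFK* transcripts therefore did not turn over. *FBP2* was gonidial-biased, with a log2 fold change of -1.12 ± 0.19 (SE, adjusted p = 2.68e-05 by edgeR), and TMM or DESeq2 size factors took it below 2-fold. *FBP1* made up 0.336% and 0.326% of the transcripts of both genes in gonidia and 18.3% and 21.4% in somatic cells. The ratio of *FBP1* to *FBP2* differed 74.6-fold between cell-types. The localization predictions in the study's list place the PFK enzymes and PCK1 in the chloroplast and FBP1 in no named organelle, so that a ratio of transcripts here does not compare enzymes of 1 compartment.

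At the lower step, the 3 *PCK* paralogs split between the cell-types. Gonidial libraries held 6 and 6 counts of *PCK2* and somatic libraries 286 and 551. Per kilobase this was 2.39 and 2.49 normalized counts against 118 and 178. The somatic libraries differed from each other by more than the gonidial ones, and both were far above them. The difference was 60.6-fold, with a log2 fold change of 5.90 ± 0.39 (SE) and an adjusted p of 6.77e-11 by edgeR, and 5.06% of tested genes had a larger change toward somatic cells. From the summed counts the ratio was 62.1, with an exact 95% interval of 35.3 to 121 that covers counting error only. The gonidial level of *PCK2* was 1.65% of the somatic level, below the 3.02% and 3.15% of the summed flagellar markers. Among the single markers it lay inside the range of 0.200% to 29.4%, below the median of 1.99%, and it was above the share of *regA*. Whether the gonidial reads of *PCK2* came from somatic cells was not tested.

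*PCK3* showed the opposite pattern, with 60 and 51 counts in gonidia and 4 and 1 in somatic cells. Per kilobase it had 19.5 and 17.3 normalized counts in gonidia and 1.34 and 0.263 in somatic cells. It was gonidial-specific, with a 22.9-fold difference, a log2 fold change of -4.56 ± 0.56 (SE) and an adjusted p of 3.57e-07 by edgeR. Its somatic counts lay around the counting limit of 3, and the ratio of summed counts was 24.9 with an exact 95% interval of 10.4 to 78.3. The size of the change depended on the somatic libraries, at -5.93 without somatic replicate 1 and -3.74 without somatic replicate 2, and the call held in both cases.

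*PCK1*, the neighbour of *PCK3*, was low everywhere, with 11 and 15 counts in gonidia and 4 and 3 in somatic cells. Per kilobase it had 4.61 and 6.56 normalized counts in gonidia and 1.73 and 1.02 in somatic cells. Its log2 fold change was -2.02 ± 0.63 (SE), a 4.06-fold difference with an adjusted p of 0.00634 by edgeR, and it was gonidial-biased. The ratio of summed counts was 4.17, with an exact 95% interval of 1.76 to 11.4. The call was lost without gonidial replicate 2 (-1.74, adjusted p = 0.0903), with DESeq2's size factors (-1.33, adjusted p = 0.0650) and with the DESeq2 Wald test (-2.04, adjusted p = 0.0904).

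*PCK1* and *PCK3* were both higher in gonidia, but the genes on either side of them did not share that pattern. Vocar.0021s0020 was constitutive with 487, 435, 330 and 476 counts (gonidial 1, gonidial 2, somatic 1, somatic 2). Vocar.0021s0023, on the other side, was somatic-specific with 7, 6, 38 and 38 counts. Around *PCK2*, Vocar.0008s0022 was gonidial-specific with 563, 424, 22 and 51 counts, and Vocar.0008s0024 had 13 and 12 counts in gonidia and 0 in both somatic libraries. These 4 neighbours were chosen by position alone. Only uniquely mapped reads were counted, so reads that fit 2 *PCK* paralogs equally well are absent from all these values.

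As a result the make-up of the *PCK* transcripts turned over. Per kilobase *PCK3* supplied 73.6% and 65.6% of them in gonidia, against 1.11% and 0.147% in somatic cells. *PCK2* supplied 9.03% and 9.47% in gonidia and 97.5% and 99.3% in somatic cells. *PCK1* accounted for the remainder, 17.4% and 24.9% in gonidia and 1.43% and 0.568% in somatic cells. The sum of the 3 genes rose from 26.5 and 26.3 normalized counts per kilobase in gonidia to 121 and 179 in somatic cells, a 5.68-fold difference (exact permutation p = 0.33) that is much smaller than the change of *PCK2* alone. It was 8.52-fold with TMM and 9.26-fold with DESeq2's size factors.

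**Figure D3:**
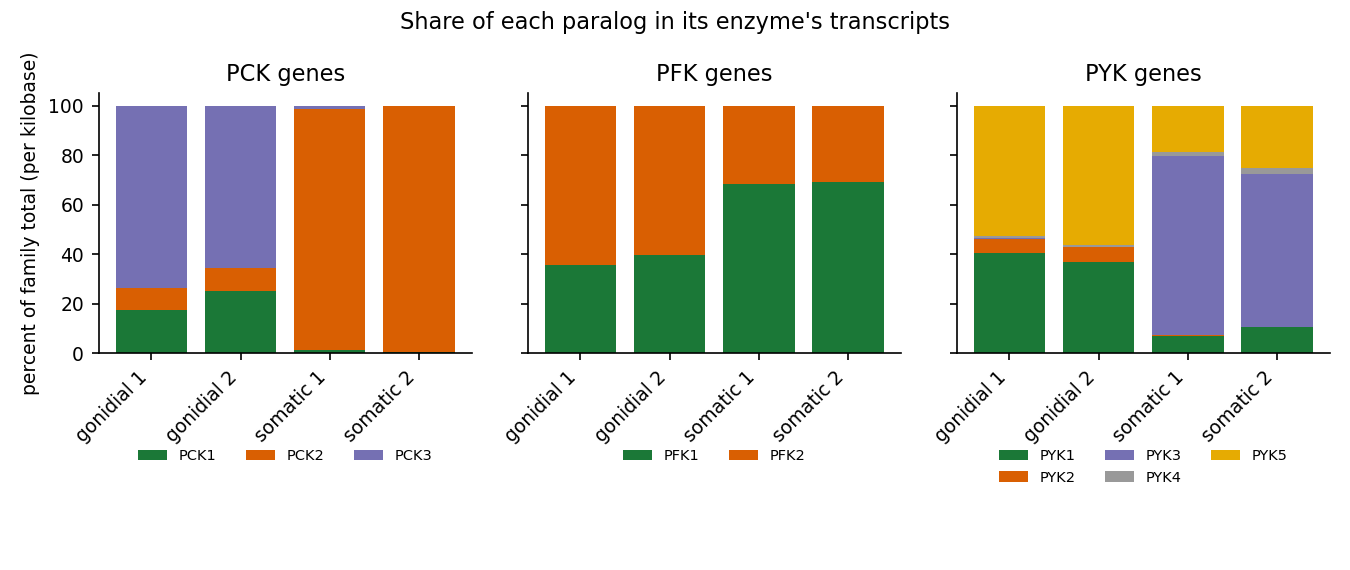
Share of each paralog in the summed transcripts of its enzyme, in percent per kilobase, stacked for *PCK*, *PFK* and *PYK* genes in each library. *PCK2* went from 9.03% and 9.47% in gonidia to 97.5% and 99.3% in somatic cells, *PFK1* from 35.5% and 39.5% to 68.4% and 69.3%, and *PYK3* from 0.115% and 0.135% to 72.5% and 61.7%.

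The opposing *PYK* genes showed a turnover of their own. *PYK1* and *PYK5*, the most abundant pair in gonidia, fell steeply in somatic cells. *PYK1* went from 1958 and 1664 to 73.8 and 123 normalized counts per kilobase, a log2 fold change of -4.20 ± 0.27 (SE). *PYK5* went from 2543 and 2534 to 197 and 296, a log2 fold change of -3.37 ± 0.24 (SE). *PYK2* had 637 and 590 counts in gonidia and 3 and 8 in somatic cells, a log2 fold change of -6.94 ± 0.37 (SE). All 3 were gonidial-specific, with adjusted p of 3.10e-11, 1.55e-10 and 2.82e-12 by edgeR. *PYK4* was constitutive by the 2-fold limit, with a 1.91-fold difference at -0.93 ± 0.27 (SE, adjusted p = 0.00356 by edgeR). *PYK3* ran against the others, with 45 and 47 counts in gonidia and 5953 and 7214 in somatic cells, a log2 fold change of 6.99 ± 0.27 (SE, adjusted p = 4.46e-14 by edgeR).

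Each side of the lower step therefore had 1 paralog that took over in somatic cells, *PCK2* among the *PCK* genes and *PYK3* among the *PYK* genes. The sum of the *PYK* genes was 4832 and 4513 normalized counts per kilobase in gonidia and 1050 and 1173 in somatic cells, 4.20-fold higher in gonidia (exact permutation p = 0.33), and 2.78-fold and 2.56-fold with TMM and DESeq2 size factors. The ratio of *PCK2* to *PYK3* was 0.435 and 0.417 in gonidia and 0.155 and 0.246 in somatic cells, lower in both somatic libraries. With only 6 *PCK2* counts in each gonidial library, counting error is large and a shift toward *PYK3* is not resolved.

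Over all listed paralogs the ratio of *PCK* to *PYK* was 0.00550 and 0.00586 in gonidia, against 0.115 and 0.153 in somatic cells. It rose 23.4-fold toward somatic cells, or 4.55 on the log2 scale, between means of -7.46 ± 0.064 (SD, n = 2) and -2.91 ± 0.29 (SD, n = 2), with an exact permutation p of 0.33. The order did not turn over, unlike that of *FBP1* and *PFK*, a ratio that leaves out *FBP2*. With *FBP2*, which exceeded the summed *PFK* genes in every library, the upper step kept its order too. *PYK* transcripts exceeded *PCK* transcripts 8.68-fold and 6.54-fold in somatic cells, against 182-fold and 171-fold in gonidia. Without *PYK3* the somatic ratios were 0.419 and 0.400 and the gonidial ratios 0.00551 and 0.00587, still below 1.

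The other enzyme that uses phosphoenolpyruvate at this point, phosphoenolpyruvate carboxylase, makes oxaloacetate and so works against PCK. Its gene *PEPC2* had 2744 and 2073 counts in gonidia and 62 and 229 in somatic cells, a log2 fold change of -4.28 ± 0.36 (SE, adjusted p = 1.80e-09 by edgeR). The ratio of summed *PCK* to *PEPC2* was 0.0388 and 0.0490 in gonidia and 7.56 and 3.87 in somatic cells. Against this enzyme the order did turn over, with *PEPC2* the more abundant in gonidia and *PCK* in somatic cells.

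In order of level per kilobase, gonidia had *PFK2* (mean 428), *PFK1* (255), *FBP1* (35.0), *PCK3* (18.4), *PCK1* (5.58) and *PCK2* (2.44), and no neighbours in that order overlapped between their libraries. Somatic cells had *FBP1* (1208), *PFK1* (361), *PFK2* (163), *PCK2* (148), *PCK1* (1.38) and *PCK3* (0.803). In somatic cells *PFK2* and *PCK2* overlapped, as did *PCK1* and *PCK3*, so that their order is not resolved. Among the 143 loci of the carbon metabolism list, *FBP1* moved from rank 120 in gonidia to rank 28 in somatic cells and *PCK2* from rank 140 to rank 86, whereas *PCK3* went from rank 127 to rank 140. By size of change toward somatic cells *PCK2* was 3rd and *FBP1* 5th of the 141 loci tested, and *PCK3* was 6th toward gonidia.

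**Figure D4:**
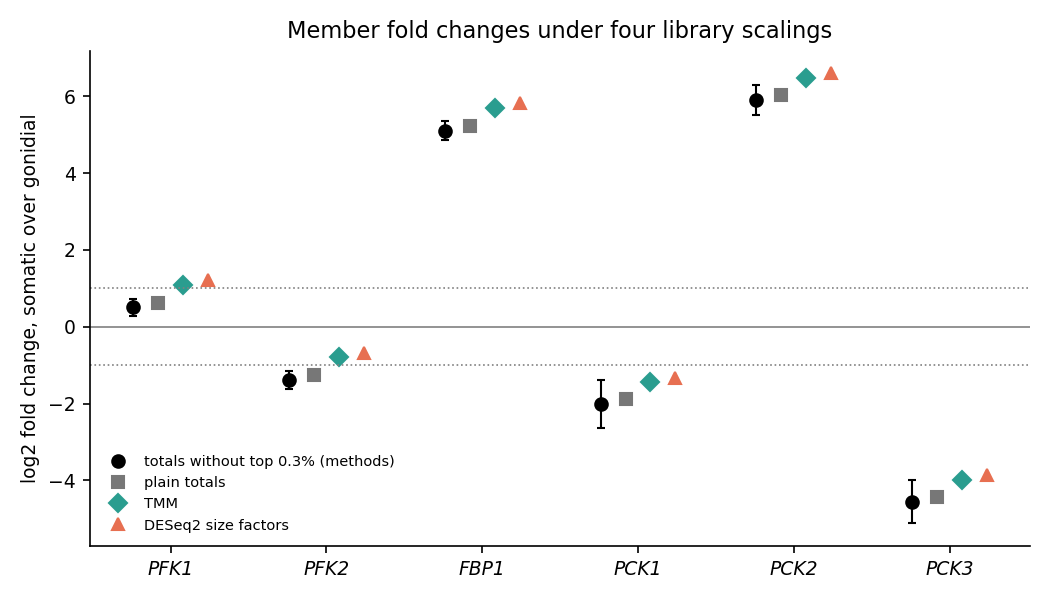
Log2 fold change (somatic over gonidial) of the 6 control genes under 4 library scalings, with SE bars on the values given in the text (black) and dotted lines at a 2-fold change. *FBP1*, *PCK2* and *PCK3* stayed far from the dotted lines, whereas *PFK1* crossed the upper line and *PFK2* the lower line with TMM and DESeq2 size factors.

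The remaining glycolysis and gluconeogenesis genes of the study's list, which include the *PYK* genes, *PEPC2* and enzymes used in both directions, number 14. Of these 9 were called gonidial and 1, *PYK3*, somatic, beside 46.7% and 26.0% of all tested genes. The called share was close to the 72.7% of all tested genes. Their median change was -1.87 (log2), beside -0.85 for all genes tested. With TMM and with DESeq2 size factors 7 were gonidial and 1 somatic. Of the 13350 genes, 5070 were then gonidial and 4295 somatic with TMM, and 4836 and 4490 with DESeq2 size factors. *PYK2* and *PEPC2* had the largest changes toward gonidia apart from *PGM5*, a phosphoglycerate mutase with 11 and 5 counts in gonidia and 0 in both somatic libraries, at least 2.93-fold higher in gonidia against a floor of 3 counts per library. *FBP1*, *PCK2* and *PYK3* were the only somatic calls among the 20 genes of the pathway, beside 26.0% of all tested genes. *PFK1* joined them with TMM and DESeq2 size factors.

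**Figure D5:**
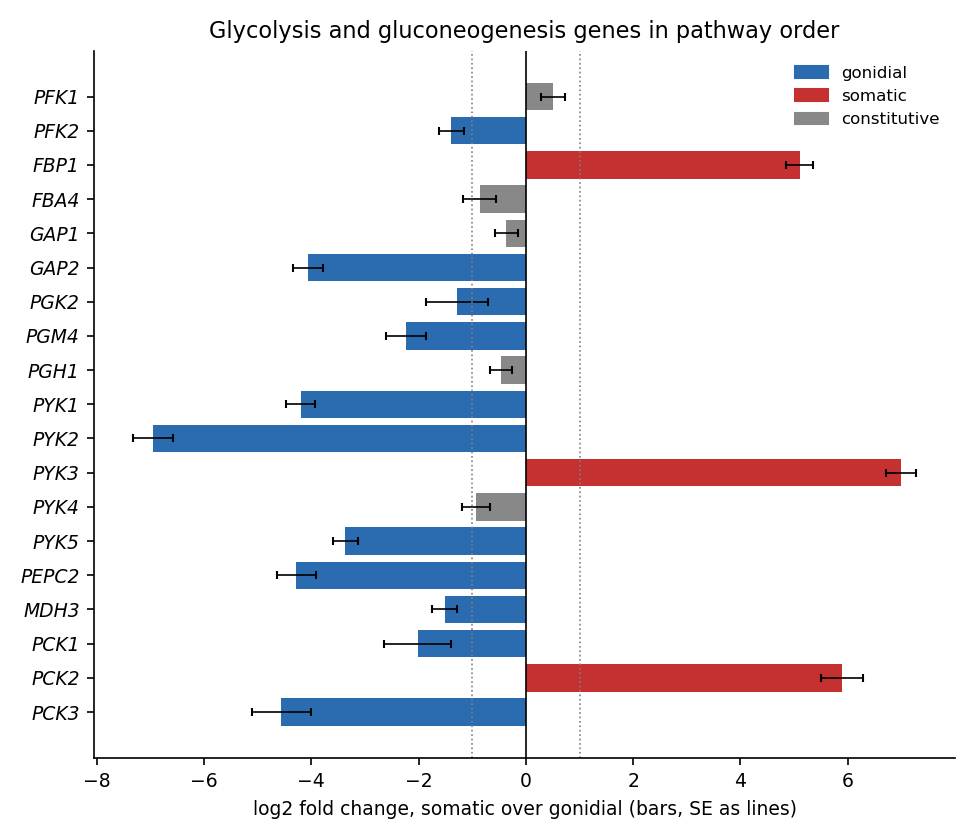
Log2 fold change (somatic over gonidial) with SE lines for the 6 control genes and 13 of the other 14 genes in pathway order, with *PGM5* left out because it had no somatic counts, blue for gonidial, red for somatic and grey for constitutive genes. *FBP1*, *PYK3* and *PCK2* are the somatic bars at 5.11, 6.99 and 5.90, and the grey bars of *GAP1* and *PGH1* turn positive with TMM and DESeq2 size factors.

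Lists of plastid and hexose-side enzymes around the upper step held no somatic calls, but they are short. Of 7 plastid genes that share their steps with the Calvin cycle, 4 were gonidial and 0 somatic, beside 46.7% and 26.0% of all tested genes, and their median was -1.11, beside -0.85. The largest changes were in *TPIC1*, a triose phosphate isomerase (-4.52 ± 0.28), the aldolase *FBA1* (-1.22 ± 0.20) and *FBP2*. Of 4 genes on the hexose side 3 were gonidial and 0 somatic, beside the same shares of all genes, and their median was -1.14. The gonidial genes were phosphoglucose isomerase *PGI1* (-2.27 ± 0.24) and the phosphoglucomutases *GPM1* (-1.14 ± 0.20) and *GPM2* (-1.13 ± 0.44). With TMM and with DESeq2 size factors 1 gene of each group was still called, beside 70.1% and 69.9% of all tested genes.

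The glyoxylate cycle makes the oxaloacetate precursors that PCK can draw on when carbon comes from fatty acids. Of 7 genes in this group 3 were somatic and 1 gonidial, beside 26.0% and 46.7% of all tested genes. With TMM and with DESeq2 size factors 3 were somatic and 0 gonidial, the call of *ACS2* being lost. Of all tested genes 4295 were then somatic and 5070 gonidial with TMM, and 4490 and 4836 with DESeq2 size factors. The median of the group turned from -0.17 to 0.43 and 0.54, while that of all tested genes rose from -0.85 to -0.26 and -0.14. Isocitrate lyase *ICL1* had 13 and 19 counts in gonidia and 336 and 523 in somatic cells (4.55 ± 0.33, SE), and malate synthase *MAS1* had 33 and 27 against 465 and 673 (4.06 ± 0.29, SE). The acetyl CoA synthetases *ACS3* (1.67 ± 0.31) and *ACS2* (-1.24 ± 0.26) went in opposite directions. The ratio of *PCK2* to *ICL1*, per kilobase, was 0.406 and 0.278 in gonidia and 0.741 and 0.917 in somatic cells.

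The genes with the pattern most like each control gene were found among 135 other tested carbon metabolism genes, by Euclidean distance of centred log2 normalized counts over the 4 libraries. For *FBP1* they were the beta-amylase *AMB2* (distance 0.456) and *ICL1* (0.693). *PCK2* had the same 2 nearest genes, *AMB2* (0.504) and *ICL1* (1.26). For *PCK3* they were *AGP2*, a large subunit of ADP-glucose pyrophosphorylase (1.04), and *GAP2*, a glyceraldehyde 3-phosphate dehydrogenase (1.20). *PCK1* was closest to *RBCS5*, a Rubisco small subunit gene (0.127), and to *ACP2*, an acyl carrier protein gene (0.414). With 3 to 15 counts of *PCK1* per library, counting error and the count added before the log both enter these 2 distances. Both also enter the distances of *PCK2*, with 6 and 6 gonidial counts, and *PCK3*, with 4 and 1 somatic counts. The same holds for distances to *AMB2*, with 4 and 3 gonidial counts. *PFK1* lay near the acetyl CoA synthetase *ACS1* (0.229) and *SDH1*, a succinate dehydrogenase subunit (0.275), both constitutive, and *PFK2* near the malate dehydrogenase *MDH3* (0.197) and *DLA1*, a pyruvate dehydrogenase subunit (0.198), both gonidial-biased. With 4 libraries these distances mainly order genes by the size of the cell-type difference.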

How the data were processed

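RNA was sequenced from 2 gonidial and 2 somatic preparations, grouped by cell-type from the labels. The authors trimmed reads with Trimmomatic, mapped them with STAR on genome version 2 and deposited whole-number counts of uniquely mapped reads per gene model made with HTSeq, without normalization. Whether counting used strand is not given in the sources used here.

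Library size was the total without the most abundant 0.3% of genes. Genes at 0 throughout, then the lowest 10% by mean normalized count, were dropped, leaving 13350 for edgeR 4.0.16 (R 4.3.3) with cell-type as the only term (2 residual degrees of freedom). In simulated data for this comparison with 13167 genes tested, 180 of 200 changed genes were called, with 4 false calls. These changed genes were split evenly between directions and had mean normalized counts of at least 10, with the same dispersion for all genes. Such data hold no overall shift like the median change of -0.85 in the real libraries. They do not test calls that depend on library scaling, or *PCK1*, whose mean count was lower. Ratios used (count + 0.1) per kilobase. Gene lengths were solved from the study's length-scaled means and the counts, and all 143 came out whole within 0.1 bp.

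Named genes are the control genes, the *PYK* genes and *FBP2*, in each other list up to 3 called genes per direction by size of change, and the 2 nearest patterns. Neighbouring loci were chosen by position, outside this rule. Members and lists were chosen with earlier results of these data known. Alternatives were TMM, plain totals, size factors and the Wald test of DESeq2 1.42.0, glmTreat, 2 other filters, a replicate term and each library left out. None of the 6 locus identifiers occurs in the RefSeq annotation used here (0 of 6), so positions and sequences are not given. That annotation of another assembly holds 4 *pck* and 3 *pfk* symbols. The sums here cover the study's list and may not cover each family in full.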

Additional observations from a re-analysis of the deposited data

How the results depend on the processing

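*FBP1*, *PCK2* and *PCK3* kept their direction and call in all 12 alternatives, with log2 fold changes from 4.99 to 5.81, from 5.56 to 6.60 and from -5.93 to -3.74. With no library left out, the number of control genes called stayed at 4 or 5. It was 2 gonidial and 3 somatic with TMM, and 1 and 3 with DESeq2 size factors. That of all genes was 8463 to 9777, or 63.4% to 74.1% of the 12356 to 14834 genes tested. Of the 14 other pathway genes 8 to 10 were called, and only 12 of the 14 were tested under the filter of edgeR. *PFK1* was called somatic with TMM (1.10) and DESeq2 size factors (1.21), which took *PFK2* below 2-fold (-0.79 and -0.67). *PCK1* lost its call with DESeq2 size factors (-1.33), the DESeq2 Wald test (-2.04) and without gonidial replicate 2 (-1.74), and the cause was not tested.

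The difference in the *FBP1* to *PFK* ratio, 5.48 on the log2 scale, became 5.65 without length scaling, 4.61 against *PFK1* and 6.49 against *PFK2*, and ranged from 5.34 to 5.63 with each library left out. That of *PCK* to *PYK*, 4.55, became 3.60 without length scaling, 7.94 for *PCK2* alone and 6.17 without *PYK3*, and ranged from 4.34 to 4.75 with each library left out.

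Same-numbered libraries come from separate cultures, and the correlation of their deviations from the cell-type means was -0.039 over 13350 genes. With the replicate block 5 control genes, 9664 of all genes and 9 of the other pathway genes were called, and no call of a control gene changed.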
